A study of Mus musculus with 14 samples.

Results

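The 46 genes described here act in G2 and mitosis, the last stage before a cell divides and the division itself. They were taken by symbol from a list of cyclins, kinases, checkpoint, kinetochore, kinesin and cytokinesis genes, and the rule uses no measured value. All 46 were found among the 23646 gene symbols of one set of libraries and the 54540 symbols of the other, and all 46 passed the filter on low values (a mean of at least 1 FPKM) in both. RNA was sequenced from cultured BFU-E, the erythroid burst-forming progenitors from which red cells descend, isolated from fetal liver of C57BL/6 mice. The OB set holds 3 libraries of cells given compound OB at 100 µM and 3 libraries of cells given the solvent DMSO; the PD set holds 3 libraries with compound PD at 3 nM and 3 further DMSO libraries. All 4 groups were grown in StemSpan SFEM II, and the labels give neither the age of the embryos nor the time in culture. Whether the replicates were grown from different animals or in different dishes is not stated in the labels. The p-values below therefore reflect the spread among these samples alone, and that spread may be technical.

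Entry into mitosis is driven by cyclin A and cyclin B bound to CDK1, which CDC25 phosphatases activate and the kinases PLK1 and Aurora A amplify. The spindle checkpoint holds cells until kinetochores are attached, and the anaphase-promoting complex with CDC20 then marks cyclin B and securin for destruction, while with its other activator, CDH1 (encoded by Fzr1), it keeps these proteins low after division. BFU-E divide before they mature, and mRNAs of these genes accumulate late in each cycle, so their level in a population reads in part how many cells are close to division. In bulk RNA fewer cells in these stages and less RNA per cell cannot be told apart.

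Levels are in FPKM, which divides fragments by gene length and by library size, and were deposited without counts, so depth is unknown and precision is the spread over 3 libraries. Fold changes are log2 of (FPKM + 1), compound minus DMSO, from limma with p-values adjusted over all genes by the Benjamini-Hochberg method. Markers of the labelled cell type and of other cell types were read first. The 6 erythroid progenitor markers (Kit, Gata1, Gata2, Klf1, Epor, Tfrc) summed to between 1045 and 1266 FPKM in the DMSO libraries of the OB set and between 936 and 1131 in those of the PD set. The 8 hepatocyte markers summed to at most 2.98 and 3.91 FPKM in the same libraries, and Ttr was at 0 in all 12. Neutrophil and granulocyte precursor markers (9 genes) summed to 144 to 578 FPKM in the DMSO libraries of the OB set and to 11362 to 17167 in those of the PD set (the sets were normalized separately). The 8 megakaryocyte markers summed to 484 to 1381 and 2332 to 4604 FPKM in the same libraries, and to 587 to 986 with compound OB. The 8 mast cell and basophil markers summed to 4.92 to 17.6 FPKM in the DMSO libraries of the OB set and to 572 to 1154 in those of the PD set. Markers of other lineages were thus measured beside those of the label, with higher sums in the PD set.

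In the cells given DMSO the G2 and mitosis genes were well expressed. Their median level per gene length was 59.0 FPKM in the DMSO libraries of the OB set, against 15.4 for all genes tested, and 59.4 against 14.3 in the PD set. Ube2c, the ubiquitin-conjugating enzyme that works with the anaphase-promoting complex, had the highest control level in both sets, 273 ± 94.3 FPKM (SD, n = 3) and 236 ± 44.4. The least abundant was Cenpf, a large kinetochore protein, in the OB set (13.0 ± 4.84 FPKM) and Cdc25c, a CDK1 phosphatase, in the PD set (9.48 ± 1.28 FPKM). Over the 46 genes the control levels of the 2 sets had a Spearman rho of 0.88 and a Pearson r of 0.91 on the log2 scale, as a description across genes that share gene lengths and libraries. Ratios between the separately normalized sets are descriptive, and the marker sums above also differ between the sets. Cdk1 stood 2.73 times higher in the PD controls (160 ± 16.4 FPKM) than in the OB controls (58.6 ± 6.03), Cdc25b 2.67 times and Fzr1 1.91 times, and in the PD controls the library DMSO 1 held 191 FPKM of Cdc25b and 205 of Fzr1, against at most 90.1 and 85.1 in DMSO 2 and 3.

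**Figure D1:**
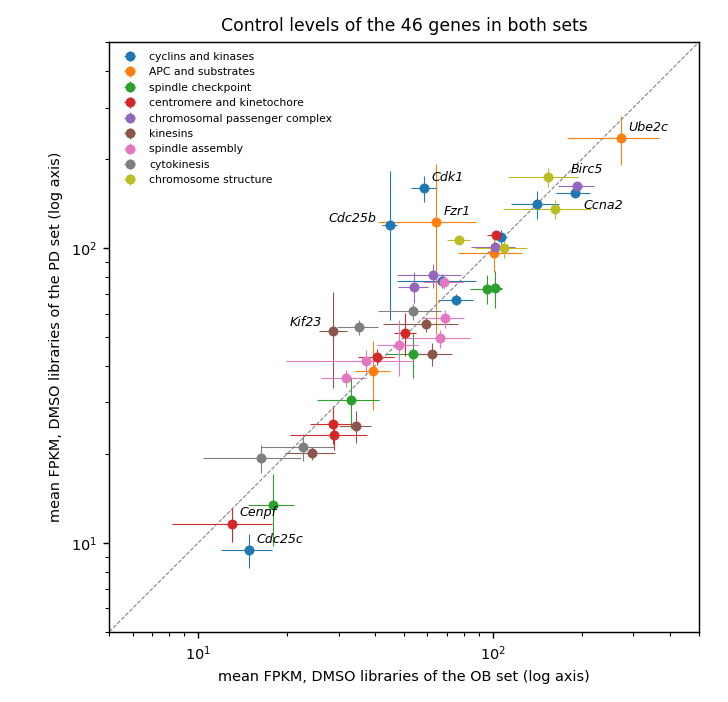
Mean FPKM of each of the 46 genes in the DMSO libraries of the OB set (horizontal, log axis) and of the PD set (vertical, log axis), with bars of 1 SD over 3 libraries, coloured by role. The dashed line marks equal values; Cdk1, Cdc25b and Fzr1 lie farthest above it, and Ube2c is at the top right.

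Neither compound gave a G2 or mitosis gene that passed the test in the main fits, which are unpaired (a fit of the OB set with the replicate number as a block follows below). With compound OB 0 of 46 genes had an adjusted p under 0.05 (limma), where 0 of all 10103 genes tested did (0%), and 0 of 46 had an unadjusted p under 0.05, against 372 of all genes (3.68%). With compound PD 0 of 46 passed, against 3 of 11887 genes (0.0252%), and 1 had an unadjusted p under 0.05, against 1268 of all genes (10.7%). The intervals show, gene by gene, how large a change the spread among these libraries allows, and that spread may be technical. With compound OB the 95% confidence interval of every one of the 46 lay within 2-fold in both directions, and with compound PD that of 45 did, Cdc25b being the exception.

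Before the single genes, the libraries have to be described, because in the OB set the 46 genes differed more between replicate numbers than between DMSO and compound. In both replicate 1 libraries, DMSO 1 and compound OB 1, 28 of the 46 genes (60.9%) were lower than in all 4 other libraries of the set, against 29% of all genes tested, and 10 (21.7%) were higher than in all 4, against 30.1%. The median of the 46 differences (replicate 1 minus replicates 2 and 3) was −0.26 on the log2 scale, and over all genes it was 0.01. Their median size regardless of sign was 0.36, and that of the compound OB effects on the same genes was 0.08. Over all genes tested these sizes were 0.24 and 0.095, so replicate numbers differed more than treatments there as well. With median-ratio scaling 27 were lower and 10 higher, and with quantile normalization 29 and 10. The shifts of DMSO 1 and of compound OB 1, each from the other 2 libraries of its own group, had a Pearson r of 0.97 and a Spearman rho of 0.96 over the 46 genes; the points share their libraries, and this is a description.

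The lowest shifts in replicate 1 were those of Cenpf (−0.90), Mki67 (−0.88), Anln (−0.76), Cenpe (−0.70), Top2a (−0.61) and Kif11 (−0.60). In the order of replicates 1, 2 and 3, which is kept below, Cenpf measured 7.46, 15.4 and 16.3 FPKM with DMSO and 7.21, 13.2 and 13.7 with compound OB. Mki67, the proliferation antigen Ki-67 that coats mitotic chromosomes, measured 101, 186 and 200 FPKM with DMSO and 97.3, 179 and 171 with compound OB. For both genes the 2 replicate 1 libraries lie below the other 4, whichever the treatment. Genes higher in replicate 1 were led by Gtse1, a microtubule protein that restrains p53, at 56.9, 27.6 and 26.7 FPKM with DMSO and 48.1, 29.9 and 26.0 with compound OB. Fzr1, Ube2c, Plk1, Incenp, Cdc20, Racgap1, Cdca8, Aurkb and Tacc3 made up the other 9.

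Cdkn1a, which encodes the CDK inhibitor p21, moved with the same libraries: it stood at 321 FPKM in DMSO 1 and 227 in compound OB 1, and between 67.5 and 81.9 in the other 4. In the separately normalized PD set Cdkn1a ran from 222 FPKM (compound PD 1) to 414 (DMSO 1). Its part in the shift of the mitotic genes was not tested. In a different library, DMSO 2, the non-coding RNAs Rn45s (12380 FPKM), Rmrp (2069) and Rpph1 (1285) were high, against at most 955, 51.5 and 44.8 in the other 5. The median deviation of DMSO 2 over all genes tested was −0.09 on the log2 scale, against −0.01 to 0.03 in the other 5. For the 46 genes it was 0.07 in DMSO 2. In the PD set a single library, DMSO 1, stood apart. Over all genes tested its median deviation from the set's mean was −0.24 on the log2 scale, against 0.00 to 0.08 in the other 5 libraries. The median of the 46 genes was −0.02 in DMSO 1 and between −0.04 and 0.03 in the other 5, but single genes lay far above the mean there and all 5 spindle checkpoint genes lay below it, by a median of −0.32. The medians of the 46 genes had an SD over the 6 libraries of 0.03 in the PD set and 0.15 in the OB set.

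**Figure D2:**
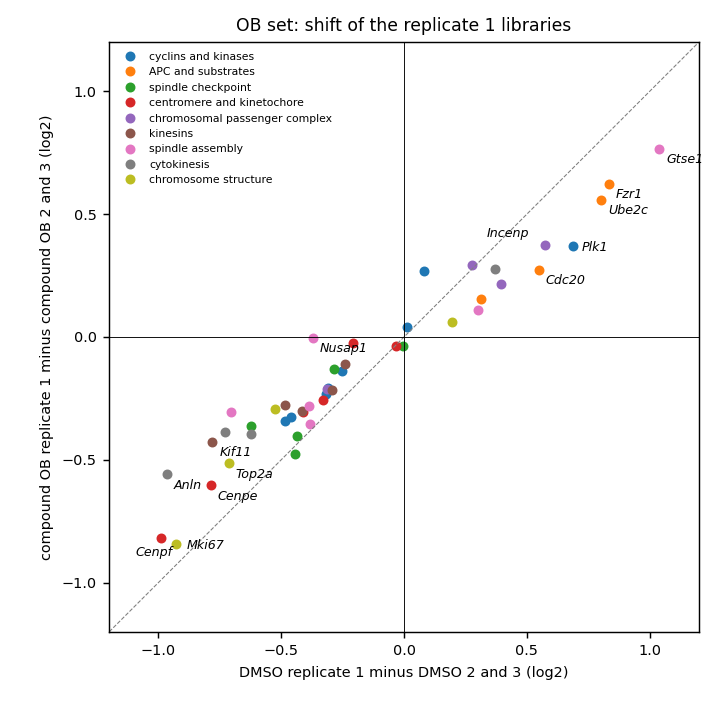
Shift of the replicate 1 library from replicates 2 and 3 within DMSO (horizontal) and within compound OB (vertical), log2 of (FPKM + 1), 1 point per gene coloured by role, with the line of equal shifts dashed. The points follow a straight trend over 46 genes (r = 0.97), from Cenpf and Mki67 at the lower left to Gtse1 at the upper right. At these ends the shift was smaller within compound OB than within DMSO: −0.82 and −0.99 for Cenpf, −0.84 and −0.93 for Mki67, and 0.77 and 1.04 for Gtse1.

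**Figure D3:**
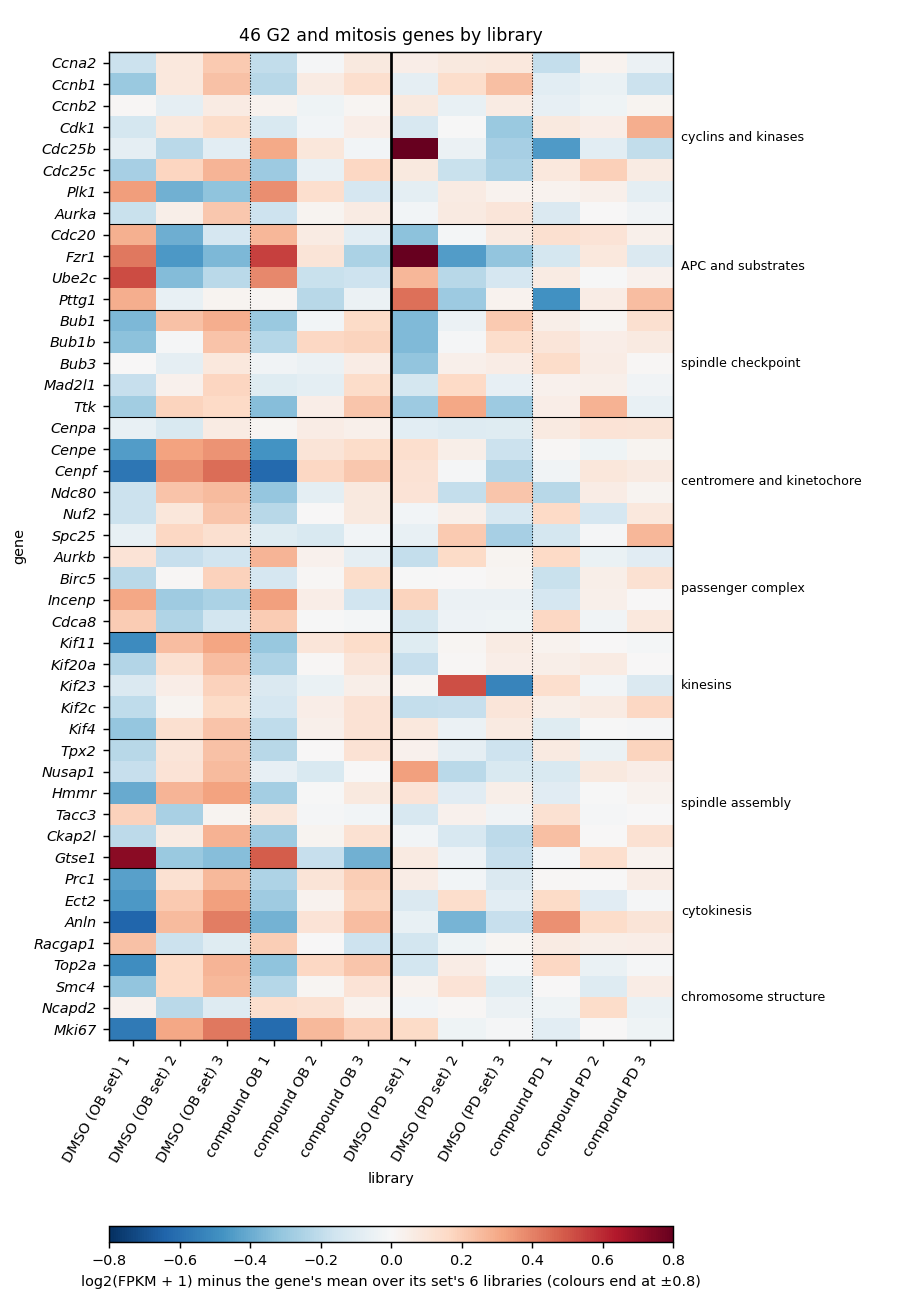
Log2 of (FPKM + 1) of the 46 genes (rows, by role) in the 12 libraries (columns), each gene centred on the mean of its set's 6 libraries; red is above and blue below that mean. The 2 replicate 1 columns of the OB set resemble each other, and in PD DMSO 1 Cdc25b and Fzr1 are high while the 5 spindle checkpoint genes are low together.

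Promoters of such genes are known for a CCAAT box, bound by the factor NF-Y, and a TTTGAA element. TTTGAA is the core of the cell cycle homology region, through which the DREAM and MuvB complexes act. The promoters of the 46 genes were therefore read. RefSeq windows of 300 bases (GRCm38.p6, 250 before to 50 after the start) were at hand for 39 of the 46 genes, in 43 windows. TTTGAA on either strand was in 30 of the 43 windows (69.8%), in 17.9% of all 32851 windows and in 4 of 38 windows (10.5%) of S phase genes. CCAAT on either strand was in 34 windows (79.1%), against 37.4% of all windows and 60.5% of the S phase windows. Both stood together in 27 windows (62.8%), against 6.95% of all; the letters of the 2 motifs overlapped in 1 of the 43. The cAMP response element TGACGTCA, the palindrome that CREB binds, was in 2 windows (4.65%), those of Cenpe and Ndc80, against 1.79% of all windows. Stretches from 120 bases before to 20 after the start are shown for both mitotic B-type cyclins, whose boxes can be compared, and for both activators of the anaphase-promoting complex, which carry different motifs; capitals mark CCAAT (or ATTGG, its reverse) and TTTGAA.
Ccnb2: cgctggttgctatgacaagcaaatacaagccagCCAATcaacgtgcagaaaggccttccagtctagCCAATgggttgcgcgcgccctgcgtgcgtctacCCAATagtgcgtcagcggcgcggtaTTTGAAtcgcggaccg
Ccnb1: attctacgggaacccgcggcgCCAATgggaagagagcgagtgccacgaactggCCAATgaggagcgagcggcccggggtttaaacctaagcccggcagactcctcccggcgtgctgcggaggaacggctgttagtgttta
Cdc20: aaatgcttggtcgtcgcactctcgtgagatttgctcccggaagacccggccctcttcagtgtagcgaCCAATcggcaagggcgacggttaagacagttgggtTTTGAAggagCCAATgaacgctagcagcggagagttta
Fzr1: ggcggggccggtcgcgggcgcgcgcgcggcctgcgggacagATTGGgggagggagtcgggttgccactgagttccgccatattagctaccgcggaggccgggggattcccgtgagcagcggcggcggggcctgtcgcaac
They lie at chr9:70421535-70421674, chr13:100786467-100786606, chr4:118437324-118437463 and chr10:81378351-81378490, all on the minus strand. In Ccnb2 the 3 CCAAT boxes begin 87, 54 and 21 bases before the start, 33 bases apart, and TTTGAA follows just past the start. In Ccnb1 the 2 boxes begin 99 and 67 bases before the start, 32 apart, and no TTTGAA is in this window. Only these exact letters were searched, so a variant of the element would be missed. Cdc20 has TTTGAA 18 bases before the start between 2 boxes. Fzr1 has a single box, on the opposite strand, 79 bases before the start, and no TTTGAA. The 27 genes with a TTTGAA in any window had a median log2 change of −0.02 with compound OB and 0.07 with compound PD, and the 12 without had −0.04 and 0.00. Their median shifts in replicate 1 of the OB set were −0.26 and −0.20. The 30 genes with CCAAT had a median shift of −0.23 and the 9 without had −0.25. Whether the motifs have a part in the shifts was not tested.

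Within the OB set the direction of the 46 genes was split. On balance 18 were higher and 28 lower with compound OB, with a median log2 change of −0.04 beside 0.03 for all genes, a range from −0.21 (Ndc80) to 0.27 (Fzr1), and an adjusted p of 1 for each (limma). Leaving out DMSO 3 or compound OB 1 turned the median to 0.04 and 0.03, so no direction is given. The counts by role below moved as well. With 1 library left out, the number higher ran from 0 to 5 of the 5 spindle checkpoint genes and from 0 to 4 of the 5 kinesins. It ran from 0 to 4 of the 6 spindle assembly genes, from 1 to 4 of the 4 chromosome structure genes and from 1 to 3 of the 6 kinetochore genes. For the 8 cyclins and kinases it ran from 2 to 6, and for the 4 cytokinesis genes from 1 to 3. The 2 groups of 3 libraries did not overlap for 1 gene, Cdc25b, against 882 of all genes (8.73%). Samples with the same replicate number deviated together in this set, replicate 1 most clearly, so the pairs were also compared. DMSO 2 deviated about equally with compound OB 2 and 3 (r of 0.43 and 0.41), so the pairs of replicates 2 and 3 rest on their numbers. Compound was higher than DMSO in all 3 pairs for 6 genes (Cdc25b, Plk1, Fzr1, Aurkb, Incenp, Ncapd2), against 23.2% of all genes, and lower in all 3 for 11 (Ccna2, Cdc25c, Pttg1, Cenpe, Cenpf, Ndc80, Nuf2, Spc25, Kif20a, Ckap2l, Mki67), against 16.7%. With the replicate number as a block the median SE of the 46 genes was 0.07 in place of 0.16. Still 0 of 46 passed (smallest adjusted p 0.293, limma), against 7 of all genes (0.0693%), and 7 had an unadjusted p under 0.05 (Cdc25b, Plk1, Fzr1, Aurkb and Ncapd2 higher, Pttg1 and Ndc80 lower), against 14.9% of all genes.

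When both replicate 1 libraries were left out, a choice made after seeing the data, 2 of the 46 genes passed: Plk1 with a log2 change of 0.35 (SE 0.10, adjusted p = 0.00594, limma) and Fzr1 with 0.33 (SE 0.10, adjusted p = 0.00958). In that fit of 2 against 2 libraries 1780 of 9997 genes passed (17.8%), a larger share than among the 46. In the other fits of compound OB the adjusted p lay between 0.151 and 1 for Plk1 and between 0.147 and 1 for Fzr1.

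**Figure D4:**
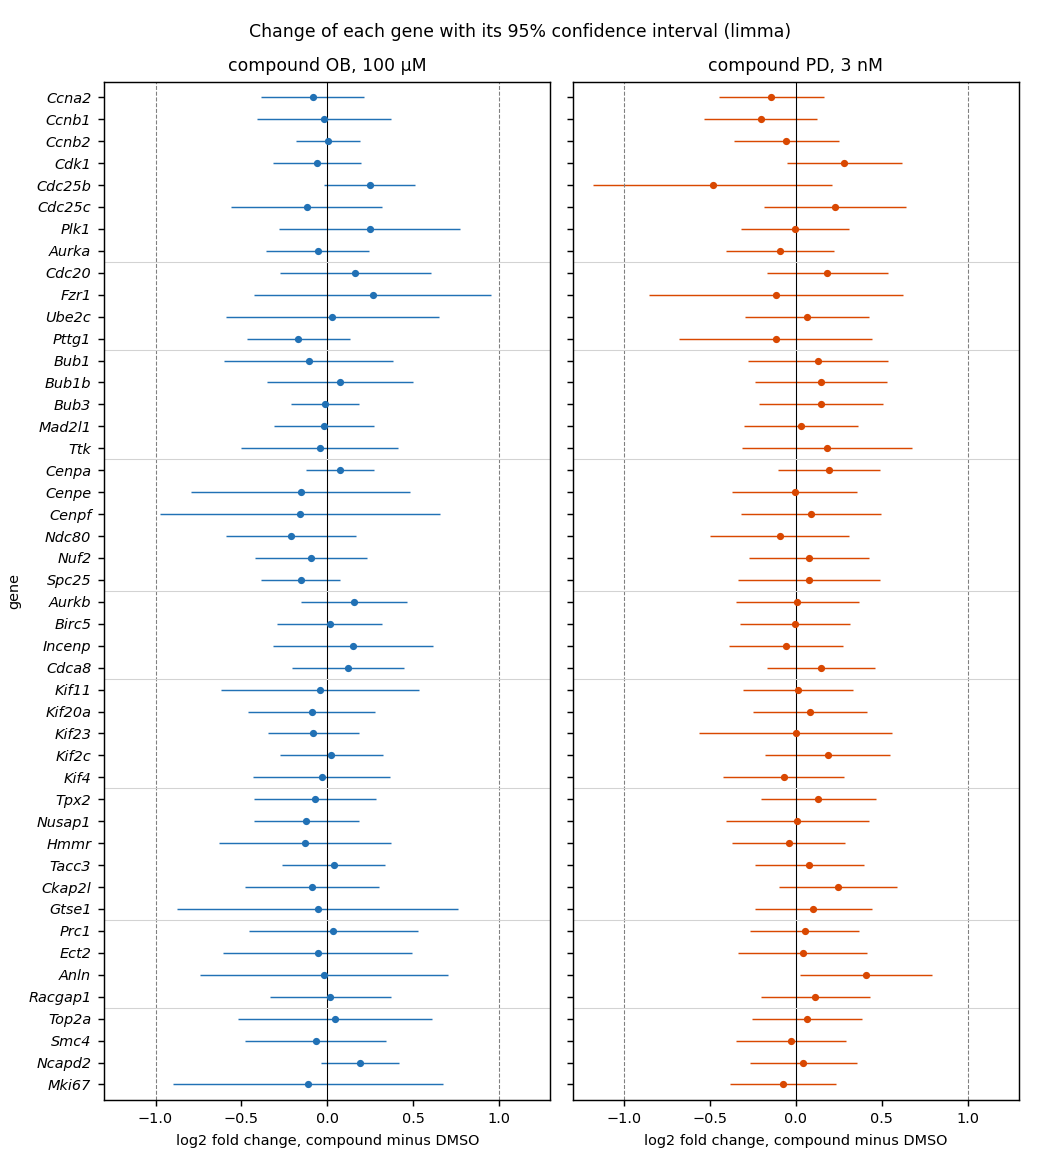
Log2 fold change (compound minus DMSO, on log2 of FPKM + 1) of each of the 46 genes with its 95% confidence interval, for compound OB (left) and compound PD (right), 3 libraries per group; dashed lines mark 2-fold. In these unpaired fits every interval of compound OB includes 0. For compound PD that of Anln does not, and that of Cdc25b reaches past 2-fold.

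Among the cyclins and mitotic kinases (8 genes), 3 were higher and 5 lower with compound OB and 2 higher and 6 lower with compound PD, none past the test. Ccnb1, cyclin B1 (chr13:100778739-100786486), measured 113, 148 and 164 FPKM with DMSO and 119, 146 and 153 with compound OB. In the other set Ccnb1 measured 124, 144 and 155 FPKM with DMSO and 123, 126 and 116 with compound PD. The groups overlapped in both sets, and the log2 changes were −0.02 (SE 0.16) and −0.21 (SE 0.15). Ccna2, cyclin A2, which acts from S phase to early mitosis, measured 162, 194 and 212 FPKM with DMSO and 159, 182 and 193 with compound OB. With compound PD its 3 values lay below all 3 controls: 153, 155 and 156 FPKM with DMSO and 128, 150 and 142 with compound PD. The distance was small, a log2 change of −0.14 (SE 0.14), and with compound OB it was −0.08 (SE 0.13). Cdk1, the kinase these cyclins activate (chr10:69335146-69352912), measured 51.9, 60.6 and 63.5 FPKM with DMSO and 52.5, 56.4 and 59.2 with compound OB. The PD values of Cdk1 were 161, 176 and 143 FPKM with DMSO and 186, 182 and 216 with compound PD. The PD groups of Cdk1 did not overlap, but the change of 0.28 (SE 0.15), the highest of the group, did not pass (adjusted p = 0.576, limma).

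Plk1, the polo-like kinase of mitotic entry (chr7:122159435-122169884), measured 90.5, 54.6 and 57.0 FPKM with DMSO and 92.8, 78.7 and 65.0 with compound OB. Both replicate 1 libraries stood above all libraries of replicates 2 and 3, and DMSO 2 and 3 stood below the compound libraries. The change was 0.25 (SE 0.22), and with the replicate number as a block the SE was 0.10. The 6 PD values of Plk1 lay between 73.0 and 80.9 FPKM, with a change of −0.01 (SE 0.14). Aurka, the Aurora kinase of the spindle poles, measured 64.8, 75.8 and 85.3 FPKM with DMSO and 65.3, 74.5 and 76.7 with compound OB. In the other set it measured 63.5, 67.9 and 69.1 FPKM with DMSO and 59.6, 64.9 and 63.4 with compound PD. Both groups of Aurka overlapped in each set, with changes of −0.06 (SE 0.13) and −0.09 (SE 0.14). Cdc25b, a phosphatase that starts CDK1 activation, measured 46.5, 41.9 and 45.99 FPKM with DMSO and 60.5, 52.0 and 48.2 with compound OB, and with 0.25 (SE 0.11) it was the highest of its group and the single gene whose OB groups did not overlap. With compound PD it was the lowest of the 46: 191, 90.1 and 77.2 FPKM with DMSO and 67.5, 87.7 and 81.0 with compound PD. That rests on PD DMSO 1, and without this library the change was −0.09 in place of −0.49 (SE 0.31). Cdc25c was the lowest of the group with compound OB, at −0.12 (SE 0.18), and stood at 0.23 (SE 0.18) with compound PD.

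**Figure D5:**
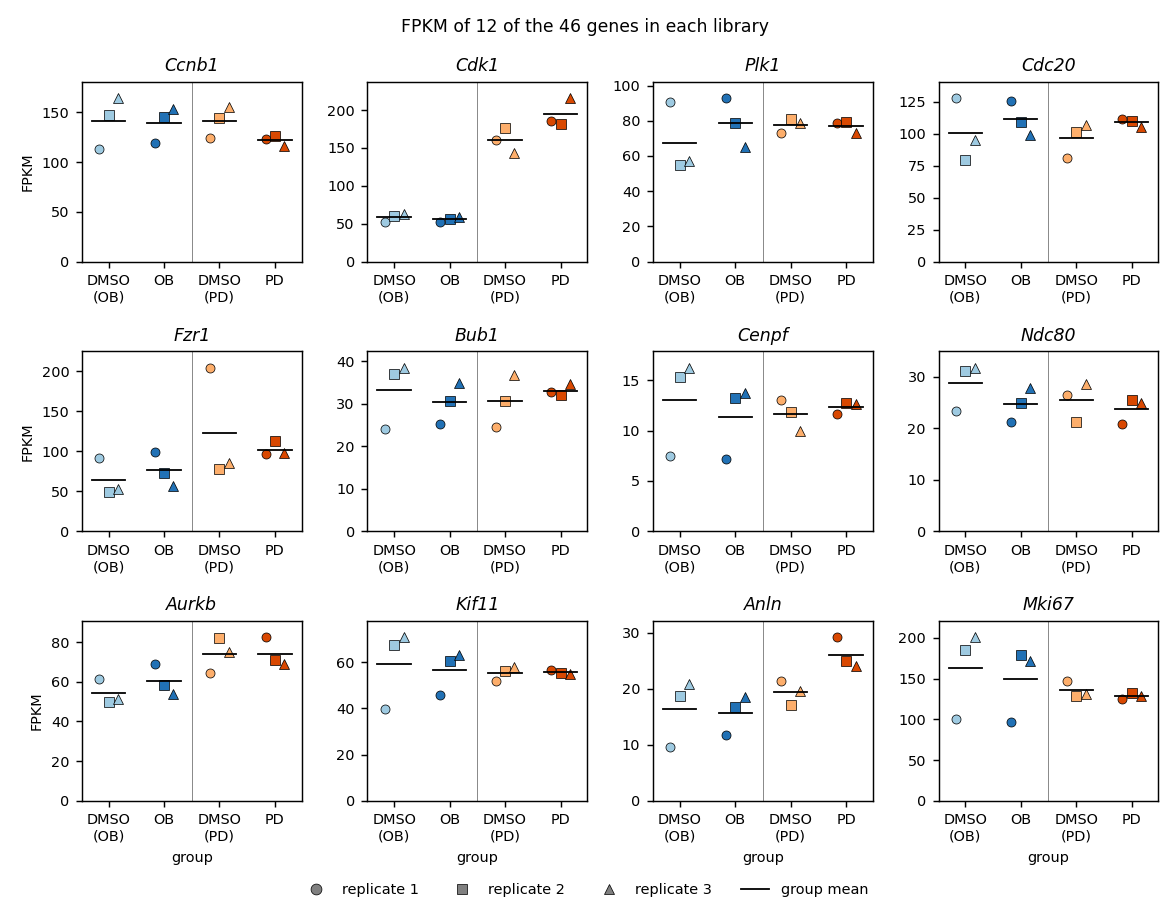
FPKM of 12 of the 46 genes in each library, by group (DMSO and compound of the OB set, left of the line; DMSO and compound of the PD set, right of it), with the replicate number as the symbol and the group mean as a bar; each axis starts at 0. In the OB set the circles (replicate 1) stand apart in both groups for genes such as Cenpf, Kif11 and Mki67, and in the PD set the DMSO replicate 1 library stands apart for Fzr1.

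Of the 4 genes of the anaphase-promoting complex and its substrates, 3 were higher with compound OB and 2 with compound PD. Cdc20, the activator used in mitosis, measured 128, 79.6 and 95.3 FPKM with DMSO and 126, 110 and 98.8 with compound OB. Cdc20 measured 81.2, 101 and 107 FPKM with DMSO and 112, 110 and 105 with compound PD. The groups overlapped in both sets, and the changes of Cdc20 were 0.16 (SE 0.19) and 0.18 (SE 0.16). Fzr1, the activator that takes over after mitosis and in G1 (chr10:81366879-81378370), measured 91.2, 48.9 and 52.7 FPKM with DMSO and 99.5, 72.9 and 56.6 with compound OB. In each pair the compound library was above its DMSO library, by 0.13, 0.57 and 0.10 on the log2 scale. The pair with 0.57 holds DMSO 2, the library with the high non-coding RNAs. The unpaired change of Fzr1, 0.27 (SE 0.29), was the highest of the 46. The PD values of Fzr1 were 205, 77.6 and 85.1 FPKM with DMSO and 96.1, 112 and 97.7 with compound PD. Again PD DMSO 1 stood far above the other 5, and leaving it out moved the change from −0.12 (SE 0.33) to 0.32. Ube2c changed by 0.03 (SE 0.26) and 0.07 (SE 0.16). Pttg1, securin, which guards cohesin until anaphase, was the lowest with compound OB, at −0.17 (SE 0.13), lower in all 3 pairs, and stood at −0.12 (SE 0.25) with compound PD.

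In the spindle checkpoint (5 genes) 1 was higher and 4 lower with compound OB, and none passed with either compound. With compound PD the median was 0.14 and 5 were above 0, which rests on PD DMSO 1: without it the median was 0.01 and 3 were above 0. Bub1, a checkpoint kinase at the kinetochore, measured 24.1, 36.9 and 38.4 FPKM with DMSO and 25.2, 30.7 and 34.9 with compound OB. Bub1 measured 24.5, 30.5 and 36.7 FPKM with DMSO and 32.6, 32.0 and 34.6 with compound PD. It was the lowest of the group with compound OB, −0.11 (SE 0.21), and stood at 0.13 (SE 0.18) with compound PD. Mad2l1, the protein that binds and restrains CDC20, measured 83.3, 97.1 and 107 FPKM with DMSO and 88.5, 89.6 and 105 with compound OB. Mad2l1 then measured 66.6, 82.1 and 70.2 FPKM with DMSO and 75.1, 75.5 and 71.9 with compound PD. All these groups overlapped, and the changes of Mad2l1 were −0.02 (SE 0.12) and 0.03 (SE 0.15). Bub1b, which forms the checkpoint complex with these proteins, was the highest with compound OB (0.08 (SE 0.18)), and Ttk, the kinase Mps1, the highest with compound PD (0.18 (SE 0.22)).

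Of the centromere and kinetochore genes (6), 1 was higher with compound OB and 4 with compound PD. In all 3 pairs of the OB set 5 of the 6 lay below DMSO (Cenpe, Cenpf, Ndc80, Nuf2 and Spc25), as did 16.7% of all genes. Their unpaired changes lay between −0.21 and −0.09, and none passed with or without the block. Ndc80, the microtubule-binding core of the outer kinetochore, measured 23.4, 31.1 and 31.7 FPKM with DMSO and 21.1, 24.9 and 27.9 with compound OB. Its change, −0.21 (SE 0.16), was the lowest of the 46 (adjusted p = 1, and 0.299 with the block, limma). With compound PD Ndc80 was again the lowest of its group, at 26.5, 21.3 and 28.6 FPKM with DMSO and 20.8, 25.5 and 24.8 with compound PD. There the groups overlapped and the change was −0.09 (SE 0.18). Cenpa, the histone H3 variant that marks centromeres, measured 101, 96.2 and 110 FPKM with DMSO and 106, 109 and 108 with compound OB. It was the highest of the group with compound OB, at 0.08 (SE 0.08). The PD libraries gave tight values, 112, 110 and 111 FPKM with DMSO and 124, 128 and 127 with compound PD. There the groups did not overlap, with means of 111 ± 0.667 and 127 ± 1.84 FPKM (SD, n = 3), but the change of 0.19 (SE 0.13) did not pass (adjusted p = 0.723, limma).

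All 4 genes of the chromosomal passenger complex, which corrects wrong kinetochore attachments, were higher by value with compound OB and 2 with compound PD. Aurkb, its kinase, measured 61.4, 49.9 and 51.1 FPKM with DMSO and 68.9, 58.3 and 54.1 with compound OB. Each pair had the compound above DMSO, by 0.16, 0.22 and 0.08, and the unpaired change was 0.16 (SE 0.13), the highest of the group. For compound PD, Aurkb measured 64.6, 82.3 and 74.9 FPKM with DMSO and 82.4, 71.0 and 69.1 with compound PD, with overlapping groups and a change of 0.01 (SE 0.16). Birc5, survivin, measured 166, 195 and 220 FPKM with DMSO and 176, 195 and 214 with compound OB. Birc5 then measured 162, 163 and 164 FPKM with DMSO and 143, 168 and 177 with compound PD. Neither set separated the groups, and its changes were 0.01 (SE 0.13) (the lowest of the 4) and −0.01 (SE 0.14). Cdca8, borealin, was the highest with compound PD, at 0.15 (SE 0.14), with groups that did not overlap, and Incenp, the scaffold of the complex, the lowest, at −0.06 (SE 0.15).

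Among the kinesins (5 genes), motor proteins that move along microtubules, 1 was higher with compound OB and 3 with compound PD. Kif11, which pushes the spindle poles apart, measured 39.8, 67.6 and 70.7 FPKM with DMSO and 45.7, 60.6 and 63.0 with compound OB. Its PD values stayed close together, 51.7, 56.1 and 58.0 FPKM with DMSO and 56.6, 55.5 and 54.9 with compound PD. The changes of Kif11 were −0.04 (SE 0.24) and 0.01 (SE 0.14), and the larger error in the OB set goes with the low replicate 1 libraries. Kif20a, a kinesin of the central spindle, measured 50.6, 64.9 and 70.9 FPKM with DMSO and 50.1, 60.03 and 63.9 with compound OB. The PD values of Kif20a were 39.5, 45.3 and 46.6 FPKM with DMSO and 46.5, 47.1 and 45.1 with compound PD. It was lower in all 3 OB pairs and the lowest of the group there, at −0.09 (SE 0.16), and stood at 0.08 (SE 0.15) with compound PD. Kif2c, which takes microtubule ends apart, was the highest with both compounds (0.02 (SE 0.13) and 0.18 (SE 0.16)), and Kif4 the lowest with compound PD (−0.07 (SE 0.16)). Kif23, a partner of Racgap1 in the central spindle, ranged from 34.4 to 72.0 FPKM among the PD controls, and its change with compound PD was 0.26 without DMSO 2 and −0.27 without DMSO 3.

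The spindle assembly genes (6) had 1 member higher with compound OB and 5 with compound PD. Tpx2, which activates Aurora A on microtubules, measured 57.0, 71.3 and 78.5 FPKM with DMSO and 57.0, 66.7 and 72.3 with compound OB. Tpx2 measured 62.0, 57.5 and 53.8 FPKM with DMSO and 63.5, 58.1 and 68.5 with compound PD. Groups overlapped in both, with changes of −0.07 (SE 0.15) and 0.13 (SE 0.15). Hmmr, a spindle pole protein, was the lowest with both compounds (−0.13 (SE 0.21) and −0.04 (SE 0.15)). Tacc3, a microtubule stabilizer, was the highest with compound OB (0.04 (SE 0.13)) and Ckap2l with compound PD (0.24 (SE 0.15), groups not overlapping, adjusted p = 0.677, limma).

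In cytokinesis (4 genes) 2 were higher with compound OB and all 4 with compound PD. Prc1, which bundles the microtubules of the central spindle, measured 39.3, 58.2 and 64.0 FPKM with DMSO and 44.9, 57.4 and 61.4 with compound OB. Prc1 then measured 64.8, 61.2 and 57.1 FPKM with DMSO and 62.6, 62.3 and 64.6 with compound PD. It was the highest of the group with compound OB, at 0.04 (SE 0.21), and stood at 0.05 (SE 0.14) with compound PD. Anln, anillin, the scaffold of the contractile ring (chr9:22331214-22389211), gave the largest value with compound PD among the 46: 21.4, 17.1 and 19.6 FPKM with DMSO and 29.2, 24.9 and 24.1 with compound PD. The 3 compound libraries lay above the 3 controls, with means of 26.1 ± 2.74 and 19.4 ± 2.16 FPKM (SD, n = 3). The change of 0.41 (SE 0.17) was the 1 with an unadjusted p under 0.05 and did not pass (adjusted p = 0.433, and 0.136 to 0.971 over the other fits, limma). In the OB set Anln measured 9.63, 18.7 and 20.9 FPKM with DMSO and 11.7, 16.8 and 18.6 with compound OB, with a change of −0.02 (SE 0.30). Ect2, the exchange factor that triggers furrowing, was the lowest with both compounds (−0.06 (SE 0.23) and 0.04 (SE 0.17)).

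Of the chromosome structure genes (4), 2 were higher with each compound. Top2a, which untangles sister DNA, measured 107, 170 and 184 FPKM with DMSO and 121, 171 and 177 with compound OB. The PD values of Top2a were 161, 186 and 177 FPKM with DMSO and 200, 171 and 177 with compound PD, the highest change of the group there at 0.07 (SE 0.14). Its OB change was 0.04 (SE 0.24). Mki67 was the lowest with both compounds, at −0.11 (SE 0.33) and −0.08 (SE 0.14), and its PD values were 147, 129 and 131 FPKM with DMSO and 125, 132 and 128 with compound PD. Ncapd2, a condensin subunit, was the highest with compound OB, at 0.19 (SE 0.10), and higher in all 3 pairs, by 0.10, 0.34 and 0.13.

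With compound PD the direction of the 46 genes depended on the scaling. As deposited 29 were higher and 17 lower, with a median of 0.05 beside 0.06 for all genes. With median-ratio scaling 15 were higher and the median was −0.05 (all genes −0.03), and with quantile normalization 25 were higher and it was 0.03 (all genes −0.03). Groups did not overlap for 7 genes (Cdk1, Cenpa, Cdca8, Ckap2l, Anln and Racgap1 higher, Ccna2 lower), against 2000 of all genes (16.8%), so the share was close to the background. Without DMSO 1 30 of the 46 were higher, with a median of 0.03 beside −0.02 for all genes. Counts by role moved too when 1 library was left out. The number higher ran from 1 to 4 of the 4 genes of the anaphase-promoting complex and its substrates. It ran from 2 to 5 of the 6 kinetochore genes and from 1 to 3 of the 4 chromosome structure genes. The makeup of the PD libraries differed between the groups. All 9 neutrophil and granulocyte precursor markers were detected at a mean of at least 1 FPKM, and they summed to 11362 to 17167 FPKM with DMSO and to 29072 to 36521 with compound PD. The 8 megakaryocyte markers summed to 2332 to 4604 and 4284 to 7582, the 8 mast cell and basophil markers to 572 to 1154 and 875 to 1951, and the 8 macrophage markers to 12.1 to 23.0 and 23.8 to 30.5. The 6 erythroid progenitor markers summed to 936 to 1131 with DMSO and 792 to 924 with compound PD. Their part in the values of the mitotic genes was not tested.

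The effects of the 2 compounds were compared in 1 fit of all 12 libraries. The difference (PD effect minus OB effect) passed for 0 of 46 genes, against 0 of 10342 (0%), and 0 of 46 had an unadjusted p under 0.05, against 762 of all genes (7.37%; limma, smallest adjusted p 0.719). By value 34 differences were above 0, with a median of 0.06 beside 0.02 for all genes, and between 24 and 34 were with 1 library left out. They ran from −0.74 (SE 0.37) for Cdc25b, which rests on PD DMSO 1 (−0.34 without it), to 0.43 (SE 0.35) for Anln. The 95% interval of the difference lay within 2-fold for 42 of the 46, which does not show that the compounds act alike. In the role groups the highest and lowest differences were 0.35 for Cdc25c and that of Cdc25b among cyclins and kinases, 0.05 for Pttg1 and −0.38 for Fzr1, 0.24 for Bub1 and 0.05 for Mad2l1, and 0.25 for Cenpf and 0.11 for Cenpa. In the others they were 0.03 for Cdca8 and −0.21 for Incenp, 0.17 for Kif20a and −0.04 for Kif4, 0.33 for Ckap2l and 0.04 for Tacc3, that of Anln and 0.01 for Prc1, and 0.04 for Smc4 and −0.15 for Ncapd2. Without PD DMSO 1 the difference of Fzr1 was 0.06 and that of Pttg1 0.24, that of Bub1 was 0.09, and those of Mad2l1 (−0.02), Cdca8 (−0.01) and Tacc3 (−0.002) also changed sign. Dose and set go with the compound, so effects of the compound, the dose and the set of cultures cannot be told apart.

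Further genes of the pathway gave no call with all libraries kept. Of 64 further mitosis genes 0 passed with either compound, and 0 of 60 in the difference (limma; Knl1, Sgo1, Sgo2a and Pimreg carry other symbols in the OB set and have no value for the difference), with medians of −0.01 for compound OB and 0.01 for compound PD, and unadjusted p under 0.05 for 2, 3 and 1 of them. Cep55, which recruits the machinery that severs daughter cells, had the smallest p of the difference between compounds: it measured 5.64, 6.52 and 6.05 FPKM with DMSO and 5.05, 3.77 and 4.71 with compound OB, and in the other set 2.96, 5.33 and 2.84 FPKM with DMSO and 8.57, 5.94 and 5.93 with compound PD. The groups did not overlap in either set and lay in opposite order, with changes of −0.37 and 0.75 and a difference of 1.12 that did not pass (adjusted p = 0.421, limma). Espl1, separase, had the smallest p with compound OB (0.37), followed by Cep55 and Cdc25a (0.21). With compound PD these were H2afx (0.46), a histone of DNA breaks and chromosome arms, Cep55 and Depdc1b (0.51). After Cep55 the difference was led by Sapcd2 (−0.42) and Espl1 (−0.56).

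The subunits of the anaphase-promoting complex and Ube2s, a ubiquitin-conjugating enzyme that works with it (15 genes), gave 0 with an unadjusted p under 0.05 in any test, with medians of 0.00 and 0.03. The smallest p belonged to Anapc1 (0.19), Anapc4 (−0.10) and Cdc26 (−0.13) with compound OB and to Anapc15 (−0.21), Cdc23 (0.21) and Anapc11 (0.27) with compound PD; for the difference they belonged to Cdc23, Ube2s and Cdc27. Cohesin and condensin genes (15 tested with compound OB, 16 with compound PD) likewise gave 0 at an unadjusted p under 0.05, with medians of 0.00 and −0.04. Without PD DMSO 1 the PD medians were −0.07 and −0.11, with 3 of 15 and 0 of 16 genes higher in place of 11 and 6. Among the cohesin and condensin genes Ncaph (0.08), Stag1 (−0.08) and Ncapg (−0.10) led with compound OB, Wapl (−0.25), Stag2 (−0.27) and Smc2 (−0.12) with compound PD, and Stag2, Stag1 and Ncaph2 in the difference.

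Regulators of G2 and M transcription and entry (27 genes tested) had 0 passing and 2, 2 and 1 with an unadjusted p under 0.05. Foxm1, a transcription factor that drives many mitotic promoters, measured 29.2, 25.8 and 33.6 FPKM with DMSO and 40.2, 38.1 and 36.5 with compound PD. These groups did not overlap and the change was 0.37 (adjusted p = 0.461, limma), beside 0.11 with compound OB. Cdkn2d, a CDK4 and CDK6 inhibitor, had the smallest p with compound PD (0.66) and in the difference (0.77), and Cdkn1b was the last of the 3 named with compound PD (−0.47). With compound OB Nfya, a subunit of the CCAAT-binding factor (0.29), Mybl2, the MYB protein of the MuvB complex (0.28), and E2f4, a DREAM subunit (0.34), had the smallest p. In the difference E2f4 (−0.47) and E2f2 (−0.58) followed Cdkn2d; E2f2 measured 102 FPKM in PD DMSO 1 and at most 57.9 in the other 5 libraries of that set. Without PD DMSO 1 Cdkn2d passed with compound PD (0.88, adjusted p = 0.0242, limma).

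For S phase genes, which act just before G2, 0 of 42 passed in any test with all libraries kept. In the OB set 26 of 42 were higher with a median of 0.02, led by Pold1 (0.35), Mcm2 (0.23) and Pole (0.28). In the PD set 11 were higher and 31 lower with a median of −0.09, led by Gins2 (−0.57), Ung (−0.65) and Cdk2 (0.33), and 2, 1 and 1 genes had an unadjusted p under 0.05 in the 3 tests. The PD values depend on which DMSO libraries are kept. In DMSO 1 the S phase genes had a median deviation of −0.27, against 0.21 and 0.19 in DMSO 2 and 3. Without DMSO 1 the median change was −0.26 with 40 of 42 lower, and Gins2 (−0.83, adjusted p = 0.0402) and Ung (−1.03, adjusted p = 0.029, limma) passed, beside 167 of all genes; without DMSO 2 or DMSO 3 it was −0.004 and −0.01. Gins2, Mcm2 and Pole had the smallest p of the difference (−0.61, −0.41 and −0.55). When both replicate 1 libraries of the OB set were left out, 8 of the 64 further mitosis genes, 6 of the 27 regulators and 5 of the 42 S phase genes passed with compound OB, beside the 17.8% of all genes given above for that fit.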

How the data were processed

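RNA was measured in 12 libraries (4 groups of 3); the 2 chromatin samples of the series were not analysed here. The authors deposited FPKM per gene with 2 decimals. The aligner was STAR and the genome build mm10, per the submitters' processing notes. Not given in the sources used here are the program that made the FPKM, the annotation and the use of strand, so overlapping and antisense genes are uncertain. Rows of the OB set whose names had been split at a hyphen, names turned into dates and repeated names were left out. Sequencing depth is unknown. FPKM were tested as log2(FPKM + 1) with limma 3.58.1 (R 4.3.3, statmod 1.5.0; trend and robust moderation), two-sided, on genes that averaged 1 FPKM or more over the compared libraries, with Benjamini-Hochberg adjustment over all of them and a threshold of 0.05; the fit was tested on simulated data. Adding 1 understates the change of low genes. Compound libraries were set against the DMSO libraries of their own set, and the difference of the effects in a fit of all 12.

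Alternatives were other pseudocounts (0.1), filters (none, 5), scalings, a replicate block, 1 fit for all 12 libraries and leaving out libraries (for the role groups and further lists chosen after seeing the data). Deviations from the group means of same-numbered libraries correlated at 0.83, 0.43 and 0.65 over genes in the OB set. This set was therefore also compared in pairs and with the replicate number as a block. The main fit of this set, with its SEs and intervals, was unpaired. DMSO 2 with compound OB 3 gave 0.41 and DMSO 3 with compound OB 2 gave 0.33. The values set replicate 1 apart, and the pairing of replicates 2 and 3 rests on their numbers. In the PD set same-numbered libraries correlated at −0.01, −0.03 and −0.02, and that set was not taken as paired. The 46 genes and all lists were chosen with earlier results of these data known. Values per library are given for 19 genes named by rule (the main gene or genes of each role), and the highest and lowest change of each role group are named, as are the 3 smallest p of each further list. Other genes with values per library (Cdc25b, Anln, Cenpf, Gtse1, Cep55, Foxm1) were chosen after their values were seen. Positions and promoters are RefSeq's for GRCm38.p6; Incenp, Cdc25c, Tpx2, Smc4, Aurkb, Ccna2 and Kif20a had no promoter entry. Tables and figures were made with Python 3.11.15, pandas 2.3.3, numpy 2.4.6 and matplotlib 3.10.9.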

Additional observations from a re-analysis of the deposited data

How the results depend on the processing

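For compound OB, compound PD and their difference, 0 of 46 genes passed under every alternative run except 1: leaving out both replicate 1 libraries of the OB set (added after seeing the data) gave 2 with compound OB, so over the fits that left out libraries this count ran from 0 to 2. The median of the 46 genes with compound OB was −0.06 with median-ratio scaling, −0.07 with quantile normalization and −0.04 with the replicate block, and ran from −0.17 (without DMSO 1) to 0.04 (without DMSO 3) when a library was left out. For compound PD it was −0.052 with median-ratio scaling, −0.052 with replicate block and median-ratio scaling, and 0.026 with quantile normalization, and ran from 0.01 (without DMSO 3) to 0.11 (without DMSO 2). The PD replicate numbers did not pair the samples; the block there left 0 of 46 passing and moved the count over all genes from 3 to 41. Counts over all genes also moved elsewhere: for compound OB from 0 to 7 with the block, 148 with block and median-ratio scaling together and 14 without DMSO 1, and for compound PD to 167 without DMSO 1, 33 with all 12 libraries in 1 fit and 0 to 2 without any other single library. With all libraries kept, 42 of the 46 OB changes, 30 of the PD changes and 43 of the differences had the same sign under every setting. Counted as 1 value per gene and alternative, 11 OB values moved by more than 1 SD and 677 stayed the same. For compound PD 4 moved and 640 stayed, and for the difference 1 moved and 919 stayed. All these moves came when a library was left out, and the cause was not tested. The remaining 2 OB values were those of Plk1 and Fzr1, which passed without both replicate 1 libraries. With unknown depth and 3 libraries a group, changes smaller than the intervals given cannot be detected.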
